A study of Mus musculus with 12 samples.

Results

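The regions described here are the 514 stretches of open chromatin wider than 1000 bases in the authors' list of ATAC-seq regions lower in IWR1-treated mouse 2-cell embryos. They were chosen by their place in that list and by width, end minus start, from its 1400 regions, out of 3745 regions in the lists lower and higher in IWR1 together. The choice rests on the ATAC-seq contrast and on width, so both are given as descriptions without a test. RNA-seq of other embryos from the same 2 treatments was not used to choose them and is tested below.

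In the treated group, embryos were kept in KSOM medium with 50 µM IWR1-endo, a tankyrase inhibitor (IWR1 below), and in the control group in KSOM with DMSO, its vehicle. All came from superovulated NSA(CF-1) females and B6SJLF1/J males. As pronuclear embryos they were taken 16 to 20 h after human chorionic gonadotropin was given, then cultured under 5% oxygen and collected at 46 h. RNA-seq used 4 collections of 10 embryos per group. ATAC-seq used 2 collections of 100 late 2-cell embryos per group, without zona pellucida or polar bodies, and Cas9 was used to cut mitochondrial DNA out of the libraries after 15 PCR cycles. The embryos of a collection were pooled, so spread between embryos is not seen. The RNA-seq table numbers its IWR1 libraries 5 to 8 and its DMSO libraries 1 to 4.

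ATAC-seq reads out open chromatin from where a transposase can cut, and promoters and enhancers in use are usually among the open sites. In the mouse 2-cell embryo the genome becomes transcribed while RNA stored in the oocyte is removed. Tankyrase modifies Axin, a scaffold of the complex that destroys beta-catenin, and inhibiting it stabilises Axin.

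The 6 promoters shown here lie in wide regions lower in IWR1 and belong to the genes with the smallest adjusted p among those that the rule for named genes allowed. Each runs from 250 bases before the gene start to 50 after it, 5′ to 3′ on the gene's strand. Capitals mark words that were searched for on both strands, CCAAT (bound by NF-Y), GGGCGG (Sp1 and Klf factors) and CCGGAAG (Ets factors), or their reverse complements.
Ddx21: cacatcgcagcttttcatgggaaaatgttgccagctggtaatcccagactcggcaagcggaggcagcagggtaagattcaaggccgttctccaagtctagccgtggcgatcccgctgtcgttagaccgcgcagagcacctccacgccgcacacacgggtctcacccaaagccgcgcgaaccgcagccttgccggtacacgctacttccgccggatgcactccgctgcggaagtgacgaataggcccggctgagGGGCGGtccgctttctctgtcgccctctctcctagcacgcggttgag
Crnkl1: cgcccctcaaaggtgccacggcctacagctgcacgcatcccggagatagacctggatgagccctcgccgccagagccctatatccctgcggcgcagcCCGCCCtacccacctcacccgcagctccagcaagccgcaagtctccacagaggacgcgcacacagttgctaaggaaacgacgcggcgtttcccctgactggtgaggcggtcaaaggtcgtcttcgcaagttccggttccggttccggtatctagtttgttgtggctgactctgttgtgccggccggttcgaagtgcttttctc
Cip2a: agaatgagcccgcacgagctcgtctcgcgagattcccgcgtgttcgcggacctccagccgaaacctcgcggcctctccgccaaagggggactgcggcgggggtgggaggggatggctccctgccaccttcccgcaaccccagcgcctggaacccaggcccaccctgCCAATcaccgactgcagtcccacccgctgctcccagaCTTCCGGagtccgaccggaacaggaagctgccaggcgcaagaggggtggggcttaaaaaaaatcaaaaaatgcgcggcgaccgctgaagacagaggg
Glrx2: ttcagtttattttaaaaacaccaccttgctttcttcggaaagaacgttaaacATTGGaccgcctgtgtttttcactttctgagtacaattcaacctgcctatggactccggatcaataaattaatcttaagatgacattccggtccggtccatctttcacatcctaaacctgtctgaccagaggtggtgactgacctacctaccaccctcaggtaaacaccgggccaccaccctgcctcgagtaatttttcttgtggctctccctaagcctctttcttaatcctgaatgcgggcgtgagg
Gabarapl2: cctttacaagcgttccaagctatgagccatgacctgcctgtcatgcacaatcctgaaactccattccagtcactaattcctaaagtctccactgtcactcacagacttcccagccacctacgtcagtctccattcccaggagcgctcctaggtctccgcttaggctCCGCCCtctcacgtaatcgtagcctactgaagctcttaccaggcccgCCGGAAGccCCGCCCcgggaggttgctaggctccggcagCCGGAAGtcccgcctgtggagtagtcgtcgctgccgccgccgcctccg
Tmem170: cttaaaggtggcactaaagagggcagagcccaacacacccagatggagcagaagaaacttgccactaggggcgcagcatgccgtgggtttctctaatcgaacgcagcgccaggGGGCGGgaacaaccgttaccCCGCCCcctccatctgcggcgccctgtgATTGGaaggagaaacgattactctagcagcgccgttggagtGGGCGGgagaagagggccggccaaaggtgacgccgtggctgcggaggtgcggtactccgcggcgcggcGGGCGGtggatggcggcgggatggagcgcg
Their positions are Ddx21 chr10:62602249-62602548 (minus strand), Crnkl1 chr2:145934651-145934950 (minus strand), Cip2a chr16:48993938-48994237 (plus strand), Glrx2 chr1:143739099-143739398 (plus strand), Gabarapl2 chr8:111940453-111940752 (plus strand) and Tmem170 chr8:111876626-111876925 (minus strand), from RefSeq on GRCm38.p6, the assembly behind mm10. The Glrx2 window is 1 of 4 annotated starts, and all 4 lie in the region.

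Promoter sequences were held for 17 of the 23 protein-coding genes with a start in a wide region lower in IWR1. CCGGAAG was found in 7 of these 17 promoters (41.2%), those of Cdc20, Rbsn, Tmem231, Gabarapl2, Rrn3, Dzip3 and Cip2a, against 11.9% of 17492 protein-coding promoters of the same length. GGGCGG was in 8 of 17 (47.1%), against 46.3%, and CCAAT in 6 of 17 (35.3%), against 39.0%. CACGTG, the E-box, was in 2 of 17 (11.8%), against 7.90%. Nudt13 alone held TATAAA, the TATA box (13.3% of all promoters), and CTACAANTC, a word of Thap11 and Znf143 (2.02%). GCATGCGC (Nrf1), TGACGTCA (cAMP response element), AANATGGCG (Yy1), ATCAAAG (Tcf and Lef), TCAAGGTCA (Nr5a2 and Esrrb) and TAATCTAAT (Dux) were in 0 of 17. Each of these 6 words was in under 4% of all promoters, so few matches could be seen in 17. The 12 words were read as letters in this window, without a test. Median GC content was 60.3% in the 17 promoters and 56.3% in all, and the median number of CpG pairs was 24 and 13. Cip2a and Dzip3 start next to each other in opposite directions, so their windows share sequence, as do those of Crnkl1 and Cfap61.

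The members ranged in width over more than an order of magnitude. The narrowest was 1037 bases and the widest 38987, with quartiles of 1170, 1526 and 1906 bases, and together they covered 933 kb. Of the 514, 141 (27.4%) were at most 1200 bases wide, 31 (6.03%) were over 3000 and 10 were over 5000. Widths over 1700 and up to 2000 bases held 106 members (20.6%), against 171 of 1347 (12.7%) wide regions higher in IWR1, whose median width was 1370. Just inside the threshold lay chr15:73060631-73061668 at an end of Trappc9, a subunit of a vesicle tethering complex, and then regions of 1039 and 1040 bases. Just outside it, all 886 other regions of the list were exactly 1000 bases wide, such as chr1:4940845-4941845 in Rgs20. How the lists were made and what set this width was not given in the sources used here.

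**Figure D1:**
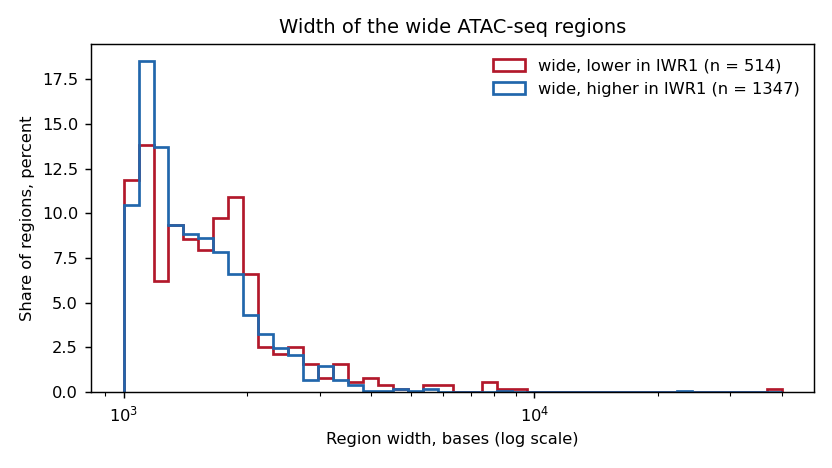
Histogram of region width in bases (log axis) for the 514 wide regions lower in IWR1 and the 1347 wide regions higher in IWR1, each as a percentage of its own group. The wide regions lower in IWR1 have a second mound of widths that ends near 2000 bases, and their range reaches 38987 bases.

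The widest members lay largely outside protein-coding genes. The widest of all, chr9:2999633-3038620, overlapped no annotated gene. Next came chr11:60634213-60643252 (9039 bases), over the pseudogene Gm12625, and chrX:94968884-94977689 (8805 bases), over no gene. The fourth, chr11:3158159-3166057 (7898 bases), lay in Sfi1, known from yeast and human cells as a centrosome gene, and the fifth, chrX:94898556-94906441 (7885 bases), over no gene. Outside the 5 widest and chosen after their values were seen, chr17:39842548-39848650 (6102 bases) overlapped Rn18s-rs5, a pseudogene, and chr1:24611088-24616524 (5436 bases) overlapped the pseudogenes Gm10222 and Gm10925. An annotation of repeats was not used here, so what repeats these stretches hold was not tested.

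Some wide regions lower in IWR1 came in rows, as did some regions of the other sets. Where regions with gaps under 10 kb are joined, 41 of the 514 members fell into 13 chains. Of the 1347 wide regions higher in IWR1, 126 fell into 62 chains. The 1000-base regions gave 25 chains with 50 of 886 regions (lower in IWR1) and 36 chains with 75 of 998 (higher in IWR1). What set the members apart was 2 chains that held 5 or more regions. One, chr11:3131596-3181963, held 10 regions that covered 27.9 of its 50.4 kb, from 1242 to 7898 bases wide, over the Sfi1 gene. The other, chrX:94873990-94916724, held 9 regions that covered 35.1 of 42.7 kb, over no annotated gene. The 3 other sets of regions had 0 chains of 5 or more: the longest chain had 2 of the 1000-base regions lower in IWR1, 3 of the wide regions higher in IWR1 and 4 of the 1000-base regions higher in IWR1. Neighbours within a chain share a locus and are not independent observations.

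**Figure D2:**
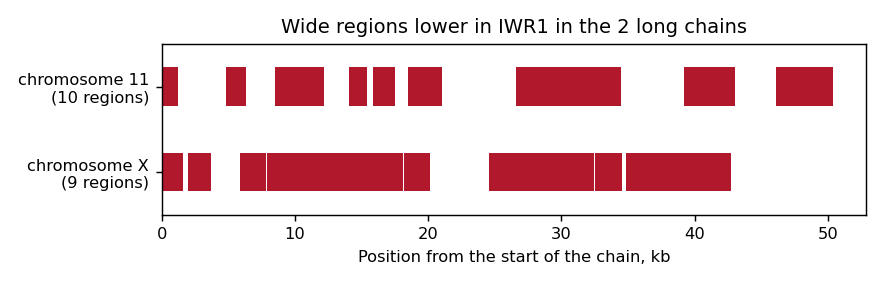
Wide regions lower in IWR1 (filled bars) in the 2 chains of 5 or more regions, by distance in kb from the first base of each chain. The 10 regions on chromosome 11 cover 27.9 of 50.4 kb, and the 9 on chromosome X lie closer together and cover 35.1 of 42.7 kb.

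The chain on chromosome X was part of a larger share of that chromosome. Chromosome X held 37 of 514 members (7.20%), against 3.16% of the 1000-base regions lower in IWR1 and 1.78% of the wide regions higher in IWR1. Chromosome 1 held 51 members, chromosome 2 held 45 and chromosome 11 held 35.

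Few of the members lay at gene starts. Of the 514 wide regions lower in IWR1, 21 (4.09%) held the start of a protein-coding gene, against 605 of 1347 (44.9%) wide regions higher in IWR1. The share was 5 of 886 (0.564%) among the 1000-base regions lower in IWR1 and 304 of 998 (30.5%) among the 1000-base regions higher in IWR1. Counting every annotated gene, non-coding ones included, 39 members (7.59%) held a start. The median distance to the nearest protein-coding start was 17526.5 bases for the members, 19856 for the 1000-base regions lower in IWR1, 1062 for the wide regions higher in IWR1 and 4501.5 for the 1000-base regions higher in IWR1. A start within 10 kb was found for 178 members (34.6%), against 254 (28.7%), 901 (66.9%) and 603 (60.4%) in those same sets. Gene ends were also rare, as 9 of the 504 members on chromosomes with strand data (1.79%) held one.

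**Figure D3:**
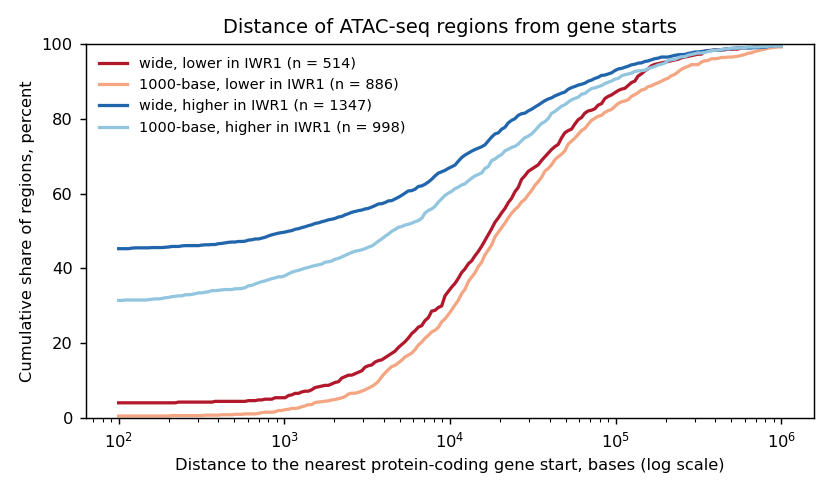
Cumulative share of regions (percent) by distance to the nearest protein-coding gene start in bases (log axis), for the wide and 1000-base regions lower and higher in IWR1. The 2 sets lower in IWR1 run close together and below both sets higher in IWR1, with 34.6% of the wide regions lower in IWR1 and 66.9% of the wide regions higher in IWR1 within 10 kb.

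About as many members lay inside protein-coding genes as outside them. A protein-coding gene body overlapped 256 members (49.8%), against 456 (51.5%) of the 1000-base regions lower in IWR1 and 934 (69.3%) of the wide regions higher in IWR1. No annotated gene of any kind overlapped 210 members (40.9%), against 363 (41.0%) and 320 (23.8%). The wide and the 1000-base regions lower in IWR1 were thus close in both shares. No region of the members lay close to the genes of the targeted pathway: the nearest was 90.9 kb from Axin2, a feedback target of beta-catenin, and 430 kb from Ctnnb1, which encodes beta-catenin. It was 2625 kb from Myc, a target of beta-catenin in many cells, 5328 kb from Tnks2 and 9483 kb from Tnks, the tankyrase genes. Only 0.969% of all protein-coding genes had a member within 10 kb, so most genes had none close by.

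RNA-seq compared transcripts near the members between IWR1 and DMSO embryos. Of 14994 genes tested, 25.4% were lower and 23.3% higher in IWR1 at an adjusted p under 0.05 (edgeR, quasi-likelihood test with Benjamini-Hochberg adjustment). Among genes whose mean was at least 5 FPKM (counts scaled by gene length and by the library's total), 41.2% were lower and 27.9% higher. Of the 23 genes with a start in a member, 22 were tested, 13 (59.1%) were lower, 3 (13.6%) were higher, and their median log2 fold change was -1.25. Over all tested protein-coding genes the median was 0.14. For 17 of the 23 the start is known by strand, and 10 of the 16 tested were lower and 1 higher. For the other 6, strand was not known and either end of the gene was taken, and 3 were lower and 2 higher. These 6 were Usp22, Sfi1, Theg, Ccdc93, Trappc9 and Rmi2, and the end in a member may not be their start. Scaled counts are relative to the rest of a library, and with whole embryos, fewer cells and less RNA per cell cannot be told apart.

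The libraries held 17963977 to 32931800 counts in IWR1 and 16606155 to 49672143 in DMSO. All 8 listed markers of the 2-cell embryo and its maternal RNA, such as Zp3 and Zscan4c, were above 0 in every library. Their sum was 8019 to 13669 FPKM in IWR1 and 15299 to 19367 FPKM in DMSO. Such a sum rests mostly on its most abundant genes, and longer lists went the other way. Of 53 tested maternal oocyte transcripts, 3 were lower and 26 higher in IWR1. Of 30 tested early 2-cell genes, 1 was lower and 13 were higher. Summed over 4 sperm markers, the level was 11.1 to 24.5 FPKM in IWR1 and 0.295 to 1.82 FPKM in DMSO, and 1 of the 4 was above 0 in every library. Over 4 leukocyte markers it was 23.0 to 37.5 FPKM in IWR1 and 3.35 to 5.86 FPKM in DMSO, with Ptprc at 0 and 2 of the 4 above 0 in every library. Over 8 cumulus and granulosa cell markers it was 9.54 to 15.4 FPKM in IWR1 and 17.6 to 34.7 FPKM in DMSO, with Amh at 0 and 1 of the 8 above 0 in every library. These levels moved with the treatment, and their part in the results was not tested.

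Among the genes with a start in a member, 2 of those that fell take part in making ribosomes. Groups that did not overlap were part of a rule for naming such genes, so this trait is given as description. Ddx21, an RNA helicase of the nucleolus, starts in chr10:62601884-62604880, the region of the first promoter shown. It had 4.61, 3.75, 5.28 and 4.54 FPKM in the 4 IWR1 libraries, against 22.2, 26.3, 17.5 and 25.9 FPKM in the 4 DMSO libraries. Every IWR1 library lay below every DMSO library, and the log2 fold change was -2.51 (SE 0.20; edgeR with Benjamini-Hochberg adjustment, adjusted p = 8.14e-06). Rrn3, the initiation factor of RNA polymerase I, had 18.94, 19.01, 21.63 and 18.86 FPKM in IWR1, against 24.4, 25.7, 26.9 and 23.9 FPKM in DMSO. Its groups did not overlap, but the fall was smaller, -0.55 (SE 0.17; edgeR with Benjamini-Hochberg adjustment, adjusted p = 0.0173), and its call was lost with library totals as the scale (adjusted p = 0.0763), without DMSO library 3 (0.0648) and without IWR1 library 8 (0.0525).

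Crnkl1, a splicing factor, starts in chr2:145934295-145935858. It had 17.2, 19.9, 23.8 and 23.5 FPKM in IWR1, against 58.1, 69.9, 63.5 and 72.0 FPKM in DMSO, with a log2 fold change of -1.83 (SE 0.18; edgeR with Benjamini-Hochberg adjustment, adjusted p = 1.52e-05). Its groups were well apart. Cfap61, a gene of motile cilia that starts in the same region, had 2.11 ± 0.555 FPKM in IWR1 and 3.52 ± 1.62 FPKM in DMSO (SD, n = 4 each), and its groups overlapped. Gabarapl2, which encodes an autophagy protein of the Atg8 family, was the most abundant of the 23 genes. It had 111, 144, 331 and 209.9 FPKM in IWR1, against 877, 908, 1193 and 1379 FPKM in DMSO. All IWR1 values lay under all DMSO values, and the log2 fold change was -2.66 (SE 0.33; edgeR with Benjamini-Hochberg adjustment, adjusted p = 5.39e-05). Glrx2, a mitochondrial glutaredoxin, had 5.54, 5.11, 10.8 and 6.42 FPKM in IWR1, against 22.5, 25.4, 27.3 and 31.5 FPKM in DMSO. Its log2 fold change was -2.13 (SE 0.26; edgeR with Benjamini-Hochberg adjustment, adjusted p = 5.39e-05), with no overlap of the groups.

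Gabarapl2 lay in a stretch of chromosome 8 with 4 members and 3 of the genes. Its region, chr8:111937762-111941100, lay under 10 kb from chr8:111932206-111935156, which has lower coordinates and holds the start of Tmem231, a protein of the ciliary transition zone. Tmem231 had 12.5 ± 1.56 FPKM in IWR1 and 11.5 ± 3.77 FPKM in DMSO (SD, n = 4 each), with overlapping groups and a log2 fold change of -0.09 (SE 0.29). Tmem170 starts in chr8:111876257-111877326. It had 3.67, 8.08, 8.68 and 4.21 FPKM in IWR1, against 22.7, 37.1, 22.9 and 18.3 FPKM in DMSO, a log2 fold change of -2.21 (SE 0.31; edgeR with Benjamini-Hochberg adjustment, adjusted p = 0.000131). Thus Gabarapl2 and Tmem170 fell, and Tmem231 between them did not pass the test.

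Cdc20, Usp22, Kat2b and Sfi1 were lower too. With or without a member nearby, 62.0% of 92 tested genes of DNA replication and cell cycle were lower. So were 55.6% of 90 tested chromatin regulators. Aebp2, another chromatin gene with a start in a member, did not pass the test. Cdc20, the activator of the anaphase-promoting complex, had 72.5, 52.8, 67.9 and 73.0 FPKM in IWR1, against 78.0, 108, 84.7 and 123 FPKM in DMSO. The groups came close but did not overlap (log2 fold change -0.74, SE 0.20; edgeR with Benjamini-Hochberg adjustment, adjusted p = 0.00957). A region higher in IWR1 also lay within 10 kb of Cdc20. Usp22, a deubiquitinase of the SAGA complex, fell by 2.53 (SE 0.40), with 3.16 ± 2.11 FPKM in IWR1 and 15.9 ± 4.18 FPKM in DMSO (SD, n = 4 each; edgeR with Benjamini-Hochberg adjustment, adjusted p = 0.000286). Kat2b, a histone acetyltransferase, fell by 2.16 (SE 0.32), with 1.42 ± 0.337 FPKM in IWR1 and 5.52 ± 1.83 FPKM in DMSO (SD, n = 4 each; edgeR with Benjamini-Hochberg adjustment, adjusted p = 0.000173). The start of Kat2b in the region chr17:53582634-53584362 is an alternative one inside the gene. Sfi1, under the chain on chromosome 11, fell by 1.60 (SE 0.31), with 32.5 ± 15.9 FPKM in IWR1 and 86.6 ± 7.52 FPKM in DMSO (SD, n = 4 each; edgeR with Benjamini-Hochberg adjustment, adjusted p = 0.00099). The models of Cdc20, Usp22, Kat2b and Sfi1 overlap other genes, and whether counting used strand was not given in the sources used here, so their counts may include reads of those genes.

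The other 2 genes that fell were Rbsn, with its start in a member, and Theg, with an end in a member and strand not known. Rbsn, a factor of endosome fusion, had 12.3 ± 5.13 FPKM in IWR1 and 32.0 ± 3.42 FPKM in DMSO (SD, n = 4 each) and a log2 fold change of -1.58 (edgeR with Benjamini-Hochberg adjustment, adjusted p = 0.000389). Theg, known from testis, had 0, 1.41, 1.49 and 1.40 FPKM in IWR1, against 5.79, 2.78, 4.79 and 3.37 FPKM in DMSO (edgeR with Benjamini-Hochberg adjustment, adjusted p = 0.0477), and was the weakest call of the 13.

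At 1 region the 2 genes that start in it moved in opposite directions. Cip2a, an inhibitor of the phosphatase PP2A, starts in chr16:48993495-48995557. It had 16.4, 14.9, 16.4 and 13.9 FPKM in IWR1, against 33.6, 44.4, 45.2 and 45.2 FPKM in DMSO, and fell by 1.64 (SE 0.19; edgeR with Benjamini-Hochberg adjustment, adjusted p = 3.95e-05). Dzip3, a ubiquitin ligase that reads out from the same stretch on the other strand, had 11.58, 11.05, 10.63 and 12.01 FPKM in IWR1, against 4.03, 6.20, 7.56 and 3.05 FPKM in DMSO. It rose by 0.92 (SE 0.28; edgeR with Benjamini-Hochberg adjustment, adjusted p = 0.017), and the call was lost without DMSO library 1 (adjusted p = 0.0523). Neither gene's groups overlapped.

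The other 2 genes higher in IWR1 were at low levels. Ccdc93, a subunit of an endosomal sorting complex, had 4.39 ± 1.20 FPKM in IWR1 and 1.47 ± 0.722 FPKM in DMSO, and Trappc9 had 2.15 ± 0.528 FPKM in IWR1 and 1.03 ± 0.223 FPKM in DMSO (SD, n = 4 each). Aebp2, a partner of Polycomb repressive complex 2, Cfap61, Rmi2, Nudt13, Tmem231 and Gm20594 did not pass the test. Grin1, a glutamate receptor subunit at 0 in 3 of 4 IWR1 libraries, had too few counts to be tested.

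**Figure D4:**
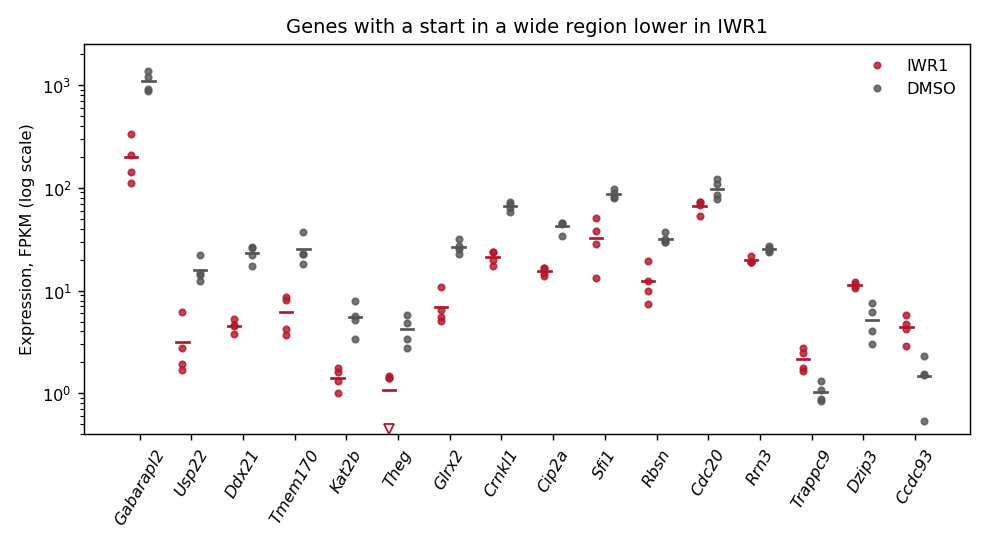
Expression in FPKM (log axis) of the 16 genes with a start in a wide region lower in IWR1 that passed the RNA-seq test, in order of log2 fold change. Points are single libraries (IWR1 left, DMSO right, 4 each), lines are means, and the open triangle stands for IWR1 library 5 of Theg at 0 FPKM; the IWR1 points lie below the DMSO points for 13 genes and above them for 3. For Usp22, Sfi1, Theg, Ccdc93 and Trappc9 strand was not known, and either end of the gene was taken as the start.

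Over a wider window the same direction was seen. Of 194 tested genes with a start within 10 kb of a member, out of 212, 95 (49.0%) were lower and 24 (12.4%) higher, with a median log2 fold change of -0.73. Among the 125 of them with at least 5 FPKM, 78 (62.4%) were lower and 18 (14.4%) higher. Near the 1000-base regions lower in IWR1, 111 of 261 genes (42.5%) were lower and 37 higher, with a median of -0.61. Near the wide regions higher in IWR1, 193 of 1066 (18.1%) were lower and 303 (28.4%) higher, with a median of 0.44. Of all tested protein-coding genes, 26.3% were lower and 22.9% higher, and of those with at least 5 FPKM, 42.2% were lower and 27.1% higher. Some genes stand in more than 1 of these sets, and the differences between sets were not tested.

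The share of genes that fell was lower at greater distance. It was 59.1% of 22 genes with a start in a member, 50.0% of 86 at under 5 kb, 45.3% of 86 at 5 to 10 kb, 42.9% of 219 at 10 to 25 kb and 35.2% of 304 at 25 to 50 kb. The genes in these bins also differed in level: the median in DMSO was 19.4, 18.2, 10.7, 8.60 and 7.37 FPKM in that order, against 3.73 FPKM over all tested protein-coding genes. The median in IWR1 was 6.56, 10.9, 9.37, 7.70 and 7.29 FPKM, against 4.41 FPKM over all tested protein-coding genes. Genes more abundant in DMSO fell more often throughout the series, but the DMSO level is itself part of the fold change. The part of level in this order was not tested.

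**Figure D5:**
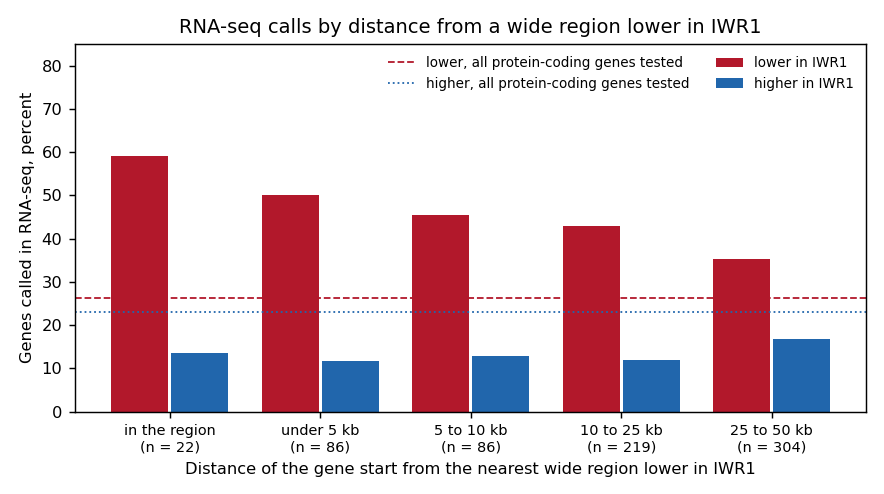
Percentage of tested protein-coding genes called lower and higher in IWR1, by distance of the gene start from the nearest wide region lower in IWR1, with the number of genes under each pair of bars; dashed and dotted lines give the percentages over all tested protein-coding genes. The share called lower is 59.1% in the regions and 35.2% at 25 to 50 kb, against 26.3% over all.

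Genes with a member nearby were more frequent among genes abundant in DMSO. Of 1457 protein-coding genes among the 1500 highest in DMSO, 46 (3.16%) had a member within 10 kb, against 11 of 1383 (0.795%) among the lowest 1500 and 1.38% of all tested. Of the 46, 39 were lower and 4 higher in IWR1, beside 67.9% lower and 15.2% higher among all 1457. Of the 11, 3 were higher, beside 28.5% higher among all 1383. Width moved with level too: genes near members of up to 1500, over 1500 to 2000 and over 2000 bases had medians of 5.70, 15.5 and 24.97 FPKM in DMSO, and 46.4%, 48.6% and 55.6% of them were lower. Among genes with known strand, 31 of 56 were lower with the region downstream of the start, and 34 of 72 with it upstream. These shares by width and side stand beside 26.3% lower among all tested protein-coding genes, and 42.2% among those with at least 5 FPKM. Differences between them were not tested.

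By function, the largest counts near members were of ribosome genes. Of 79 cytosolic ribosomal proteins 6 (7.59%) had a member within 10 kb, and of 113 ribosome biogenesis genes 5 (4.42%), against 0.969% of all protein-coding genes. All 11 were lower in IWR1, but so were 78 of the 79 and 110 of the 113, so nearly all genes of these lists fell, with or without a member nearby. The median log2 fold change was -2.09 for the 6 ribosomal proteins and -2.19 for their whole list, and -1.86 for the 5 biogenesis genes and -1.76 for theirs. These directions held under each scaling tried, and only the call of Rrn3 was lost.

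The ribosomal proteins near a member that are described here fell by like amounts. Rps20, with an end 2853 bases from chr4:3825802-3828731, had 67.6, 73.4, 148 and 109 FPKM in IWR1, against 436, 315, 472 and 437 FPKM in DMSO. Its log2 fold change was -2.26 (SE 0.27; edgeR with Benjamini-Hochberg adjustment, adjusted p = 4.56e-05), and the groups lay far apart. Rpl10, which starts 2729 bases upstream of chrX:74273545-74275330, had 94.0, 105, 144 and 103 FPKM in IWR1, against 341, 364, 424 and 354 FPKM in DMSO. It fell by 1.93 (SE 0.20; edgeR with Benjamini-Hochberg adjustment, adjusted p = 1.92e-05). Rpl37, Rps4x and Rpl5 fell too, with log2 fold changes of -2.24, -2.27 and -1.90, and none of their groups overlapped. Ribosomal proteins have many processed pseudogenes, so reads may have been shared with copies.

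Beside Ddx21 and Rrn3, the biogenesis genes near a member were Nhp2, Wdr12 and Nop56. Nhp2, a protein of the H/ACA particles that guide pseudouridylation, had 247, 331, 555 and 437 FPKM in IWR1, against 1291, 1201, 1255 and 1550 FPKM in DMSO, and fell by 1.95 (SE 0.24). Wdr12, a factor of large subunit assembly, had 5.24, 12.5, 8.39 and 9.36 FPKM in IWR1, against 21.6, 35.3, 31.3 and 24.4 FPKM in DMSO, and fell by 1.86 (SE 0.26). Nop56, a core protein of the C/D particles that guide ribose methylation, had 29.7, 36.9, 58.8 and 56.5 FPKM in IWR1, against 75.4, 115, 98.3 and 116 FPKM in DMSO, and fell by 1.34 (SE 0.24). All 3 passed edgeR's test with Benjamini-Hochberg adjustment, and none had overlapping groups. Their models overlap other genes, Nop56 those of small nucleolar RNAs.

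The other lists had 1 or 2 genes near a member, or 0. Eif2b3, a subunit of the exchange factor of eIF2, fell by 2.30 (SE 0.30), and Psma3, a core proteasome subunit, by 1.76 (SE 0.22). Srsf2, a splicing regulator, fell by 1.03 (SE 0.18), Crnkl1 as given above, and Rrm2, a subunit of ribonucleotide reductase, by 1.39 (SE 0.20). FPKM is scaled by library totals and the test by TMM. No member lay within 10 kb of a gene of the lists for the mitochondrial ribosome, RNA polymerase II and Mediator, nuclear pore, oxidative phosphorylation, heat shock proteins, histones, early 2-cell genes, or tankyrase and beta-catenin machinery. These lists had 78, 92, 62, 76, 47, 72, 40 and 37 genes in that order, and those with 1 or 2 genes near a member had 37 to 93. As 0.969% of all protein-coding genes had a member within 10 kb, few could be seen in lists of this size.

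Dppa5a, an RNA-binding protein of pluripotent cells, lay with the oocyte gene Ooep, a part of the subcortical maternal complex, near chr9:78369623-78371461. Dppa5a had 323, 339, 821 and 494 FPKM in IWR1, against 1714, 2192, 2424 and 3253 FPKM in DMSO, and fell by 2.48 (SE 0.32; edgeR with Benjamini-Hochberg adjustment, adjusted p = 7.41e-05). Ooep had 257, 225, 74.5 and 81.4 FPKM in IWR1, against 149, 90.3, 39.0 and 44.9 FPKM in DMSO. IWR1 libraries 5 and 6 lay above 7 and 8, and DMSO libraries 1 and 2 above 3 and 4, a split that was not modelled. The Ooep groups overlapped, and the gene did not pass the test (log2 fold change 0.87, SE 0.46), though it did without DMSO library 1 (1.30, adjusted p = 0.0397). Gata6, a transcription factor of primitive endoderm, was low in both groups, with 2.37, 2.33, 2.55 and 1.95 FPKM in IWR1, against 1.43, 0.742, 1.88 and 1.68 FPKM in DMSO, and did not pass the test.

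Of the 24 genes that rose within 10 kb of a member, the 8 with the smallest adjusted p outside a member included the abundant Khdc1b, Gyg and Zfp706. Khdc1b, of an oocyte and embryo gene family, had 1734, 2124, 1291 and 1721 FPKM in IWR1, against 337, 285, 388 and 231 FPKM in DMSO, and rose by 2.28 (SE 0.24; edgeR with Benjamini-Hochberg adjustment, adjusted p = 2.11e-05). Khdc1a, of the same family, rose by 1.15 (SE 0.22), with 53.1 ± 2.37 FPKM in IWR1 and 20.8 ± 4.34 FPKM in DMSO (SD, n = 4 each). Khdc1c, between the 2 regions of this cluster, had 19.5, 21.4, 133 and 160.4 FPKM in IWR1, against 12.1, 12.8, 36.5 and 38.5 FPKM in DMSO. Its groups overlapped, with no call. IWR1 libraries 5 and 6 lay far below 7 and 8, and DMSO libraries 1 and 2 below 3 and 4. This split was not modelled, so the overlap does not show that Khdc1c was unchanged. The members of this family are near copies, so the authors' counting may have split reads between them. Gyg, which primes glycogen, had 822, 688, 534 and 549 FPKM in IWR1, against 252, 306, 165 and 96.6 FPKM in DMSO, and rose by 1.52 (SE 0.29; edgeR with Benjamini-Hochberg adjustment, adjusted p = 0.00105). Zfp706, a zinc finger protein, had 722, 647, 602 and 525 FPKM in IWR1, against 278, 291, 340.5 and 295 FPKM in DMSO, and rose by 0.87 (SE 0.19). The groups of Khdc1b, Gyg and Zfp706 did not overlap.

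Actb, the cytoplasmic actin gene, and Elovl1, a fatty acid elongase, also rose. Actb, with an end 4101 bases from the 4323-base region chr5:142912077-142916400, had 106, 105, 90.5 and 58.2 FPKM in IWR1, against 23.2, 30.3, 25.2 and 24.6 FPKM in DMSO. It rose by 1.63 (SE 0.22; edgeR with Benjamini-Hochberg adjustment, adjusted p = 9.47e-05), and the groups did not overlap. Elovl1 lay near the region at the start of Cdc20 and overlaps that gene. It had 26.2, 22.9, 32.7 and 31.3 FPKM in IWR1, against 4.38, 5.48, 4.52 and 1.77 FPKM in DMSO, and rose by 2.64 (SE 0.32), while Cdc20 fell.

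Over regions, 168 members had a tested start within 10 kb. Of these, 93 had at least 1 gene lower, 24 had at least 1 higher, 6 had both and 57 had neither. Single tested protein-coding genes were lower in 26.3% and higher in 22.9% of cases, and 35 of the 168 members had 2 or more such genes, so these counts of members are not shares of genes. At chr11:116846960-116849212, Jmjd6, a Jumonji domain hydroxylase, and Srsf2 fell, and Mfsd11, whose model overlaps Srsf2, was called higher. Jmjd6 had 20.9, 41.0, 44.0 and 31.8 FPKM in IWR1, against 117, 147, 119 and 145 FPKM in DMSO, and its groups did not overlap. Genes also near a region of another list were few: 14 of the 212 lay within 10 kb of a region higher in IWR1 too. Of the 13 of these that were tested, 5 were lower, Cdc20, Mad2l2 and Rp9 among them. Of the 212, 10 lay within 10 kb of a 1000-base region lower in IWR1, of which 3 were lower and 1 higher. These small counts stand beside 26.3% lower and 22.9% higher among all tested protein-coding genes.

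Genes with more than 1 member within 10 kb were also described. Cd63, a tetraspanin of endosomes, had 123, 189.7, 299.5 and 315 FPKM in IWR1, against 338, 396, 489.7 and 812 FPKM in DMSO, and fell by 1.35 (SE 0.34). Rp9, a splicing-related gene, had 5.37, 5.91, 6.45 and 6.30 FPKM in IWR1, against 31.0, 24.3, 22.7 and 27.8 FPKM in DMSO, and fell by 2.32 (SE 0.22). Neither gene's groups overlapped. D7Ertd443e, Zcchc4, Foxa3 and Sympk, each beside 2 members, had overlapping groups and did not pass the test.

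The genes with the smallest adjusted p among those that fell within 10 kb of a member, but outside it, had varied roles. Mad2l2, a subunit of a DNA repair polymerase, had 94.1 ± 26.4 FPKM in IWR1 and 412 ± 88.0 FPKM in DMSO (SD, n = 4 each) and fell by 2.33 (SE 0.24). Znhit6, a factor of box C/D particle assembly that was not on the biogenesis list, had 37.2 ± 14.9 FPKM in IWR1 and 174 ± 20.2 FPKM in DMSO (SD, n = 4 each) and fell by 2.42 (SE 0.26). Gfpt1, which makes the first step of hexosamine synthesis, had 7.31 ± 1.30 FPKM in IWR1 and 23.5 ± 1.99 FPKM in DMSO (SD, n = 4 each) and fell by 1.87 (SE 0.18). Selenot, a selenoprotein, fell by 2.23 (SE 0.25), and Zfp821 and Rsbn1l had log2 fold changes of -2.32 and -1.65. Otub2, a deubiquitinase, rose by 1.38 (SE 0.24). These genes were picked by smallest adjusted p, so their passing edgeR's test with Benjamini-Hochberg adjustment was set in advance. None had overlapping groups.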

How the data were processed

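The authors' deposited region lists give chromosome, start and end on mm10 and no value for any library. Their depth is therefore unknown, and no spread is given. How they were made, and whether positions count from 0 or 1, was not given in the sources used here. Raw counts come from the authors' RNA-seq table, deposited per gene without normalization, per the file headers. The submitters' processing notes name the aligners STAR 2.5.1b and Bowtie2 2.2.6, the trimmers cutadapt 1.11 and Trim Galore, the counter featureCounts 1.5.0-p1, and bcl2fastq, DESeq2 and MACS2, with no role or order. FPKM was computed here from counts, gene length and library totals; it differed from the FPKM that the authors deposited for DMSO by at most 2.62e-10. The 12 other columns of per-sample values were not used, and IWR1 columns were matched to the group only.

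Genes were tested with edgeR 4.0.16 (R 4.3.3), quasi-likelihood test, TMM scaling, filterByExpr, two-sided, Benjamini-Hochberg adjustment over 14994 genes, threshold 0.05. The standard error is the log2 fold change divided by the square root of F. The median log2 fold change of all tested genes was 0.17. The labels call the collections independent. Positions of genes are from RefSeq on GRCm38.p6, which matched 24814 of 24918 entries (99.6%); strand came from its promoter table for 17492 of 21887 protein-coding genes, and for the others either end stood in for the start. That table had no chromosome 18 entries. No genome sequence was used, so no region sequence is printed. Some list members near a region are not reported here.

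The members, lists, words and rules were chosen with earlier results of these data known. Named genes had a start in a member, at least 5 FPKM and groups that did not overlap (12 lower, 8 higher by smallest adjusted p), were list members with a start in a member, or had 2 or more members within 10 kb. List members within 10 kb, the 10 genes lower and the 8 higher by smallest adjusted p outside a member but within 10 kb, and the other genes with a start in a member were added after their values were seen. DESeq2 1.42.0, other scalings, no filter, other windows and widths, and leaving out each library were alternatives. Python 3.11.15, pandas 2.3.3, NumPy 2.4.6, SciPy 1.17.1 and Matplotlib 3.10.9 were used.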

Additional observations from a re-analysis of the deposited data

Results flagged for a closer look

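In 4 of 106 groups of 4 libraries of the named genes, 1 library stood far from the other 3 by Dixon's criterion, and chance flags about 1 in 20 such groups. They were Cip2a in DMSO library 1 at 33.6 FPKM, against 44.4 to 45.2 FPKM in the other DMSO libraries, and Rrn3 in IWR1 library 7 at 21.6 FPKM, against 18.86 to 19.01 FPKM in the other IWR1 libraries. Srsf2 in DMSO library 4 was at 87.7 FPKM, against 96.0 to 97.2 FPKM in the other DMSO libraries. Gm14393, a gene that rose by 3.02 on the log2 scale (SE 0.42), was at 26.3 FPKM in IWR1 library 7, against 12.8 to 13.3 FPKM in the other IWR1 libraries. None of these libraries crossed into the range of the other treatment.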

How the results depend on the processing

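The number of members rests on the width threshold: 1400 regions are over 800 bases or, if positions count from 1, over 1000, and 264 are over 1500. The share with a protein-coding start was 34.6% within 10 kb, 7.59% for all annotated genes and 1.86% for widths over 800 bases. Within 10 kb of a start, 95 genes were lower and 24 higher, and with widths over 1500 bases, 7 genes with a start in a member were lower and 1 higher, and 57 were lower within 10 kb. Leaving out 1 library at a time gave 11 to 13 genes lower and 2 to 3 higher with a start in a member, and 88 to 94 lower and 19 to 24 higher within 10 kb. Over all genes, those fits called 3438 to 3676 lower and 2940 to 3450 higher of 15097 to 15756 tested. Within 10 kb, library totals as the scale gave 84 lower and 33 higher, and DESeq2 95 lower and 31 higher. Calls over all 14994 genes moved as well. They were 3803 lower and 3494 higher in the main setting, 3246 and 4056 with library totals, and 3904 and 4114 with DESeq2. Without the 2 long chains, 12 and 3 genes and, within 10 kb, 94 and 24 genes were called; this alternative and the counts within 10 kb were added after seeing the data.

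The median log2 fold change of all tested genes was 0.17 with TMM, 0.22 with DESeq2 size factors and 0.34 with library totals. Of 634 checks over 53 named genes, 623 kept their direction and call. Tmem231, at -0.09, turned to 0.12 with library totals, and with 1 library left out at a time it ranged between -0.34 and 0.12 (0.12 without DMSO library 3, 0.01 without DMSO library 4); it passed the test under none of these. Khdc1c was called with library totals (adjusted p = 0.048), without IWR1 library 5 (0.0382) and without IWR1 library 6 (0.0401). Where calls moved, the cause was not tested. No paired analysis was possible because the columns share no replicate number: the labels number the samples of both groups 1 to 4, but the IWR1 columns are numbered 5 to 8, and nothing other than their order ties them to the labels. Sources of spread shared by pairs of libraries are therefore not taken into account. With no value per library in the region lists, no ATAC-seq result could be tested against the spread of its 2 collections.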
